A study of Homo sapiens with 4 samples.

Results

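Adhesion G protein-coupled receptors are a family of surface receptors, and 30 of its genes were followed here among 23228 listed genes, chosen by family membership under the older symbols that the files use. The RNA came from A673, a cell line grown from an Ewing sarcoma, and was sequenced after removal of ribosomal RNA. Cells were transfected with siRNA against GPR64 (siGPR64) or with scrambled siRNA (control_GPR64), and in a second pair with siRNA against SMPD1 (siSMPD1) or with scrambled siRNA (control_SMPD1). All 4 cultures received the same lipid transfection reagent, and RNA was taken 48 h later. Each of the 4 groups is 1 library, so no difference below has a replicate check, and every difference compares 2 libraries of a single line. SMPD1 encodes acid sphingomyelinase, a lysosomal lipid enzyme.

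An adhesion receptor has a long extracellular region with a GAIN domain, which cuts its own chain in many members, and a membrane-spanning region of the G protein-coupled type. The cut leaves a tethered peptide that can activate the receptor when the outer fragment is displaced by a ligand or by force. Members are grouped by the similarity of their sequences into 9 subfamilies, here G, L, E, A, B, C, D, F and V. GPR64, now named ADGRG2, belongs to subfamily G, is best known from the epididymis, where it is needed for fluid reabsorption in the efferent ducts, and has been described in Ewing sarcoma.

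Reads counted in genes came to 2534861 in siGPR64 and 2882854 in control_GPR64, against 18849264 in siSMPD1 and 19614913 in control_SMPD1. Levels are given as CPM, the usual depth-scaled read count, after TMM scaling over all 4 libraries, and a count of 0, taken at a floor of 3 counts, allows up to 1.18 CPM in siGPR64, 1.03 CPM in control_GPR64, and 0.159 and 0.156 CPM in siSMPD1 and control_SMPD1. Intervals in brackets are exact 95% intervals for counting error only, since reads without molecular identifiers need not be independent molecules. Of 8 Ewing sarcoma markers, 7 stood at 1 CPM or more in every library, with CD99 listed at 0, while their summed level ran from 3370 to 4724 CPM. Alignments that were not unique, 20.1% of entries in siGPR64 and 30.1% in control_SMPD1, are in no gene's count. Their part in the CD99 value was not tested, so its 0 is not read as absence. The labels also give the tissue as muscle, and of 6 muscle markers 1 reached 1 CPM, MYH3, at 1.43 to 2.03 CPM, while MYOD1 and MYOG had 0 counts in every library. Of 6 leukocyte markers 1 reached 1 CPM, CD68, with sums of 3.43 to 13.6 CPM, and PTPRC was at 0 in siGPR64 and control_GPR64. The GPR64 and SMPD1 pairs differ in depth, and the part of depth in the differences between them was not tested.

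Of the 30 members, 18 had a mean of at least 1 CPM over the 4 libraries, and 12 did not. Among the 12, 6 had 0 counts in all 4 libraries: GPR97, an immune cell receptor, GPR110, GPR115, GPR144, EMR3, a myeloid receptor, and LPHN3, a latrophilin of the brain. The other 6 (GPR111, GPR112, GPR133, GPR116 of lung surfactant control, the myeloid receptor EMR1 and the endothelial receptor ELTD1) had at most 8 counts in any library, the highest being GPR116 in siSMPD1. No member of subfamily D or F passed the filter in any comparison. The 18 were GPR123, GPR124 and GPR125 of subfamily A, the 3 BAI genes of B, the 3 CELSR genes of C, GPR64, GPR56, GPR126 and GPR128 of G, LPHN1 and LPHN2 of L, CD97 and EMR2 of E, and GPR98 as the single member of V.

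The promoters of 4 members are shown as examples of how widely base composition varies within the family. The first 3 belong to members with at least 1 CPM, and GPR110, with the lowest CG content of the single-entry members, to the members at 0. Each runs from 250 bases before to 50 bases after the annotated start, in the direction of transcription, from RefSeq on GRCh38.p14, with each CG dinucleotide in capitals. GPR64 is read from the minus strand of chrX:19122419-19122718, CELSR2 from the plus strand of chr1:109249289-109249588, BAI2 from the minus strand of chr1:31764291-31764590 and GPR110 from the minus strand of chr6:47042283-47042582.
GPR64: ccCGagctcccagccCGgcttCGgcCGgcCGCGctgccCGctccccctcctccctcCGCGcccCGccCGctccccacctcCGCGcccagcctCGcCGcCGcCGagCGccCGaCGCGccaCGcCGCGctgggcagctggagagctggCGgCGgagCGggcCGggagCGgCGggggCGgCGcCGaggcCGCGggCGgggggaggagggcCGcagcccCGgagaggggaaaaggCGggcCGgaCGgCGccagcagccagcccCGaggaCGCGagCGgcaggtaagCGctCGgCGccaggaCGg
CELSR2: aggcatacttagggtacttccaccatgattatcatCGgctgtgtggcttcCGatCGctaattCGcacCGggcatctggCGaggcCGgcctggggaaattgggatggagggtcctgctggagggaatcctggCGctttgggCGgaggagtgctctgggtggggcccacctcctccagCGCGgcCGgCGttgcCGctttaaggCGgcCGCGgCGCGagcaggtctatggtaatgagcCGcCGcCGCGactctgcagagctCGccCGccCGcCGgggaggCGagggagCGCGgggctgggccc
BAI2: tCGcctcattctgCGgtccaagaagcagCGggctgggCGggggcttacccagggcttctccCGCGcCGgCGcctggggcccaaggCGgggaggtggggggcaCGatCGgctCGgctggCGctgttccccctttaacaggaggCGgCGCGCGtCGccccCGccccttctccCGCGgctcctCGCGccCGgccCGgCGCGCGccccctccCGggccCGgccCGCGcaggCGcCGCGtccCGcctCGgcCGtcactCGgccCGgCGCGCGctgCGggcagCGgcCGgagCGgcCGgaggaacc
GPR110: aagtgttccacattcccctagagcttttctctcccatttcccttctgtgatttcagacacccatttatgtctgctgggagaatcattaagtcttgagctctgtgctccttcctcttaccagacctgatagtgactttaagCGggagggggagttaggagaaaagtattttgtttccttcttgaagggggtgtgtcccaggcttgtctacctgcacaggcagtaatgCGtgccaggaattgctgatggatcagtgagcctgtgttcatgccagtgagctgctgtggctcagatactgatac

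The GPR64 window holds 50 CG dinucleotides, CELSR2 30 and BAI2 48, against 2 in GPR110. Promoters were at hand for 20 of the 30 members, with 33 entries in all. The observed over expected CG ratio lay between 0.60 and 1.21 for the 8 members at 1 CPM or more that have a single entry (GPR64, CELSR2, GPR125, GPR98, BAI3, BAI2, CELSR3 and GPR126). It lay between 0.114 and 0.756 for the 6 such members under 1 CPM, where ELTD1 had the highest ratio and GPR110 the lowest. The ranges overlap, and the medians were 0.926 and 0.280. GPR56, with 3 entries between 0.188 and 0.261, and GPR128, with entries at 0.0661 and 0.214, were measured and had CG-poor windows. LPHN3, at 0 counts in all 4 libraries, had 2 CG-rich entries, at 0.702 and 0.851, so level and CG content did not go together in every member. Over all 35116 promoter entries the median ratio was 0.579, and over the 22199 entries of protein-coding genes it was 0.737. The ETS core GGAA, searched on both strands, occurs 1 time in the GPR64 window, 4 times in CELSR2, 2 times in BAI2 and 6 times in GPR110, and at least 1 match is present in 95.5% of all promoters.

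GPR64, the targeted gene, had 128 reads in siGPR64 and 317 in control_GPR64, against 10170 in siSMPD1 and 7448 in control_SMPD1. Scaled, these were 50.1 CPM in siGPR64 and 109 CPM in control_GPR64, and 539 CPM in siSMPD1 and 388 CPM in control_SMPD1. The siGPR64 library was the lowest of the 4, and its counting interval (41.8 to 59.6 CPM) did not meet that of any other library. GPR64 was 2.16-fold lower in siGPR64 than in its paired control (1.76 to 2.68) and 7.73-fold lower than in control_SMPD1 (6.49 to 9.28). Between the scrambled libraries it was 3.57-fold lower in control_GPR64 than in control_SMPD1 (3.19 to 4.01). In bulk RNA, fewer cells that carry a transcript and less of it per cell cannot be told apart. The distance between the 2 controls was larger than the distance between siGPR64 and its own control. SMPD1, the other target, was 4.52-fold lower in siSMPD1 than in control_SMPD1 (4.29 to 4.76) and 7.85-fold lower in control_GPR64 than in control_SMPD1 (6.70 to 9.27), so the controls stand apart for both targets. Its level was 232 CPM in siGPR64 and 52.8 CPM in control_GPR64, 4.38-fold higher (3.68 to 5.28), and it was 1.74-fold higher in siSMPD1 than in control_GPR64 (1.47 to 2.06).

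GPR64 held very different shares of the family's reads in the GPR64 and SMPD1 pairs. Its reads were 6.43% of all member reads in siGPR64 (5.39% to 7.60%) and 15.1% in control_GPR64 (13.6% to 16.7%). They were 37.4% in siSMPD1 (36.8% to 38.0%) and 36.1% in control_SMPD1 (35.4% to 36.8%). The 30 members summed to 780 CPM in siGPR64 and 719 CPM in control_GPR64, and to 1441 CPM in siSMPD1 and 1074 CPM in control_SMPD1. Without GPR64 the sums were 730 CPM in siGPR64 and 611 CPM in control_GPR64, and 902 CPM in siSMPD1 and 686 CPM in control_SMPD1. The other members thus summed higher in each siRNA library than in its control, while GPR64 itself was lower in siGPR64 and higher in siSMPD1.

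**Figure D1:**
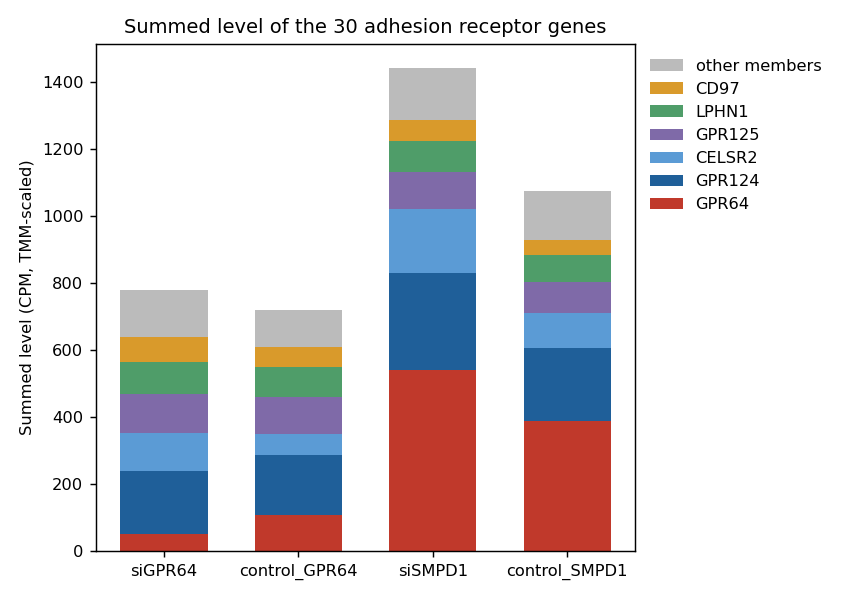
Stacked bars give the summed level of the 30 members in CPM (vertical axis, from 0) in each of the 4 libraries (horizontal axis), with the 6 members of highest mean level named and the others pooled. GPR64, at the base of each bar, is 50.1 CPM in siGPR64 and 109 CPM in control_GPR64, against 539 CPM in siSMPD1 and 388 CPM in control_SMPD1.

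Levels of different members were ranked per kilobase of the longest GENCODE transcript. GPR64 ranked first in siSMPD1 (93.1 CPM per kb) and in control_SMPD1 (67.0 CPM per kb), ahead of GPR124, a receptor of brain vessel formation, at 46.3 and 35.0 CPM per kb. In siGPR64 it ranked 6 at 8.66 CPM per kb (7.23 to 10.3), and its interval met those of CELSR2 above it (10.8 CPM per kb) and BAI1 below it (7.09 CPM per kb). In control_GPR64 it ranked 3 at 18.8 CPM per kb (16.8 to 20.9), with an interval that met that of CD97 (18.2 CPM per kb). GPR124 led in these libraries, at 30.1 CPM per kb in siGPR64 and 28.4 CPM per kb in control_GPR64. With lengths from the union of annotated exons GPR64 ranked 7 in siGPR64 and 5 in control_GPR64, and first in siSMPD1 and control_SMPD1.

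**Figure D2:**
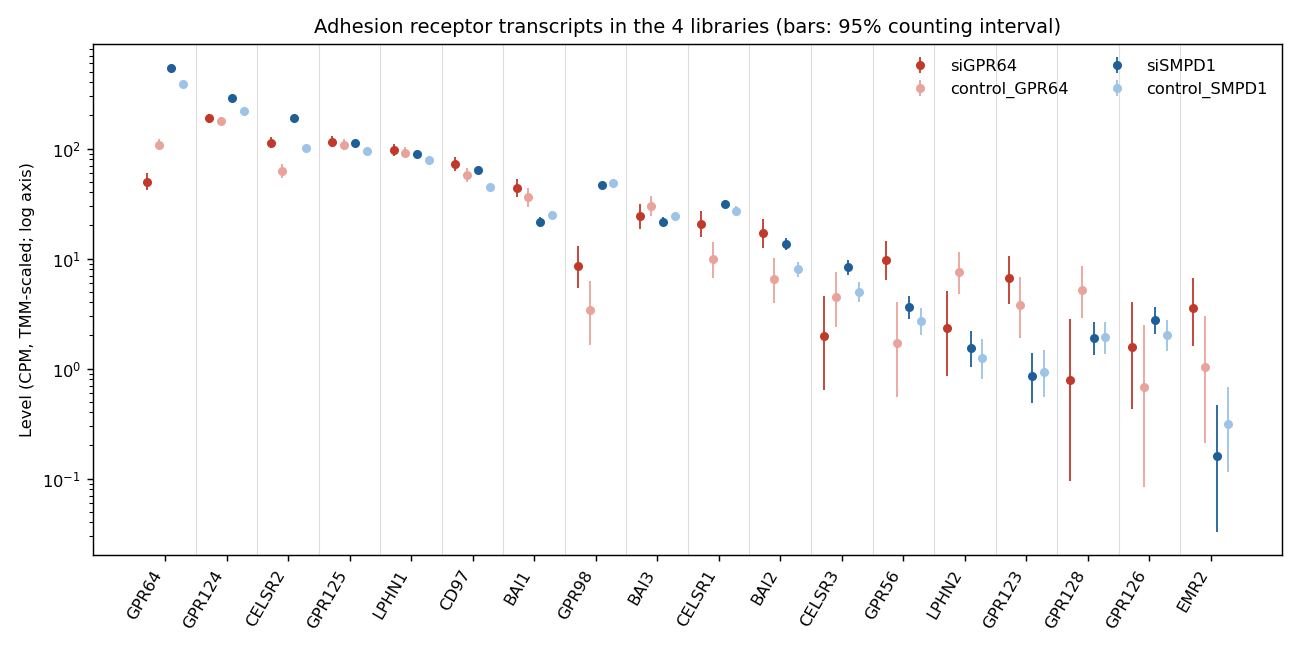
Levels in CPM (log axis) of the 18 members with a mean of at least 1 CPM (horizontal axis, by falling mean level) in siGPR64, control_GPR64, siSMPD1 and control_SMPD1; points are single libraries and bars are 95% counting intervals. GPR125 and LPHN1 lie close together across libraries, whereas GPR64 and GPR98 are lower in siGPR64 and control_GPR64 than in siSMPD1 and control_SMPD1.

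The first comparison asked how the family stands when GPR64 is silenced. In siGPR64, GPR56, GPR98, BAI2 and CELSR1 were higher and GPR64, LPHN2 and GPR128 lower than in control_GPR64. A gene counts here when its mean is at least 1 CPM in the pair, the ratio at least 2-fold and the counting interval excludes equality. Of 18 measured members 4 were higher, 3 lower and 11 short of that rule, where the rule calls 11.7% of all 12830 measured genes (6.56% higher and 5.18% lower). All 7 rest on small numbers of reads except GPR64, with at most 53 in either library. Against control_SMPD1 the rule calls 11.4% of all measured genes (6.18% higher and 5.25% lower). Of the 7 members, 3 were past it there in the same direction (GPR64, GPR56 and BAI2), 3 had the opposite sign there (GPR98, CELSR1 and LPHN2), and GPR128 kept its sign without passing. Of the 3 with the opposite sign, the interval excluded equality for GPR98 and included it for CELSR1 and LPHN2. The median log2 ratio over measured members was 0.30, against 0.01 over all measured genes. By subfamily the median was 0.97 for E, 0.86 for C, 0.28 for B, 0.09 for A, -0.05 for G and -0.77 for L. These medians rest on 2 measured genes in E and L, 3 in A, B and C, and 4 in G. The 2 of E, CD97 and EMR2, had ratios of 0.32 and 1.62, and neither passed the rule. Against control_SMPD1 the median of C was -0.40, of G -0.81 and of L 0.59.

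GPR56, a receptor for collagen III that is needed for the layering of the cerebral cortex, had 25 reads in siGPR64 and 5 in control_GPR64, and 68 in siSMPD1 and 52 in control_SMPD1. These equal 9.79 CPM in siGPR64 and 1.71 CPM in control_GPR64, against 3.60 CPM in siSMPD1 and 2.71 CPM in control_SMPD1. The siGPR64 library was the highest of the 4 and its interval did not meet the others. GPR56 was 5.26-fold higher than in the paired control (2.15 to 19.1) and 3.57-fold higher than in control_SMPD1 (2.15 to 5.94). BAI2, a brain-enriched receptor, had 17.2 CPM in siGPR64 and 6.51 CPM in control_GPR64, and 13.6 CPM in siSMPD1 and 8.02 CPM in control_SMPD1. Both siRNA libraries were thus above both controls. It was 2.60-fold higher in siGPR64 than in its control (1.51 to 4.80) and 2.14-fold higher than in control_SMPD1 (1.50 to 3.02).

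GPR98, the very large receptor of the hair cell stereocilia whose loss causes Usher syndrome, had 22 reads in siGPR64 and 10 in control_GPR64, but 873 in siSMPD1 and 926 in control_SMPD1. In CPM these were 8.62 in siGPR64 and 3.43 in control_GPR64, and 46.3 in siSMPD1 and 48.2 in control_SMPD1. It was 2.44-fold higher in siGPR64 than in the paired control (1.14 to 5.95) and 5.57-fold lower than in control_SMPD1 (3.67 to 8.97). CELSR1, a core receptor of planar cell polarity, stood at 20.8 CPM in siGPR64 and 9.93 CPM in control_GPR64, and at 31.5 CPM in siSMPD1 and 27.3 CPM in control_SMPD1. Its 2.07-fold higher level in siGPR64 (1.30 to 3.41) lies just past the rule, and its log2 ratio against control_SMPD1 was -0.40 (interval -0.83 to 0.01). In both genes control_GPR64 was the lowest of the 4 libraries.

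LPHN2, a latrophilin that binds teneurins and FLRT proteins, had 6 reads in siGPR64 and 22 in control_GPR64, and 29 in siSMPD1 and 24 in control_SMPD1. Its level was 2.35 CPM in siGPR64 and 7.54 CPM in control_GPR64, and 1.54 CPM in siSMPD1 and 1.25 CPM in control_SMPD1, with control_GPR64 above the other libraries. The gene was 3.05-fold lower in siGPR64 than in its control (1.26 to 9.67) and had a log2 ratio of 0.89 against control_SMPD1 (interval -0.67 to 2.24). GPR128, an intestinal receptor, had 2 reads in siGPR64 and 15 in control_GPR64, and 36 in siSMPD1 and 37 in control_SMPD1. At 0.783 CPM in siGPR64 and 5.14 CPM in control_GPR64 it was 5.51-fold lower (1.53 to 59.1), on 2 reads. Its levels of 1.91 CPM in siSMPD1 and 1.93 CPM in control_SMPD1 lie between those values.

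**Figure D3:**
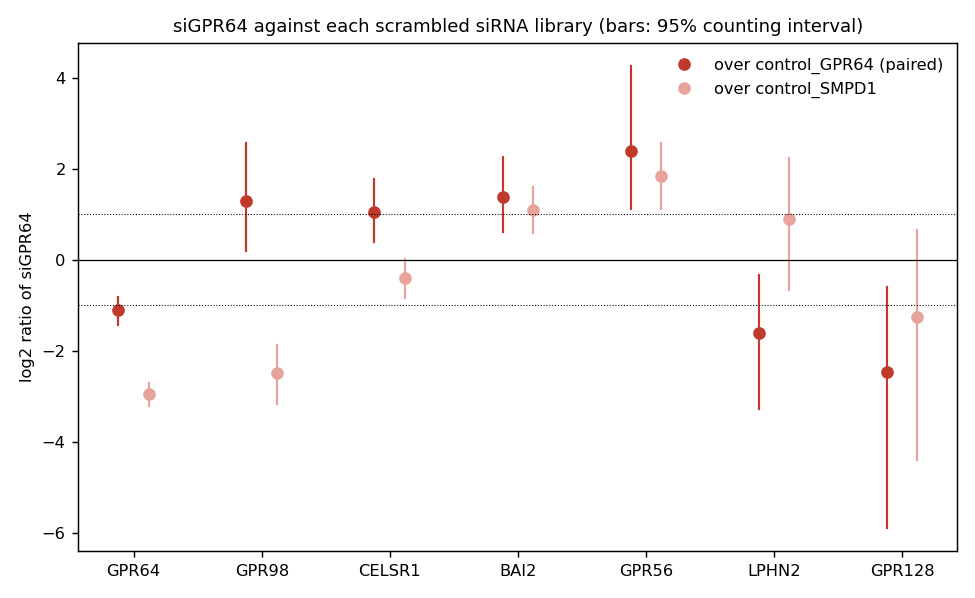
Log2 ratio of siGPR64 (vertical axis) over its paired control and over control_SMPD1 for the 7 members past the rule in the pair; bars are 95% counting intervals and dotted lines mark 2-fold. GPR64, BAI2 and GPR56 lie beyond 2-fold on the same side in both, and GPR98, CELSR1 and LPHN2 lie on opposite sides of 0.

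Among the 11 members short of the rule, GPR124, LPHN1 and GPR125 lay close to their control. GPR124 had 189 CPM in siGPR64 and 178 CPM in control_GPR64, with a log2 ratio of 0.08 (interval -0.10 to 0.27). LPHN1, which binds teneurins at synapses, had 97.2 CPM in siGPR64 and 92.1 CPM in control_GPR64 (log2 ratio 0.08), and GPR125 116 CPM in siGPR64 and 109 CPM in control_GPR64 (log2 ratio 0.09). For these 3 the interval excludes a difference of 2-fold in either direction. CELSR2, another planar polarity receptor, stood at 114 CPM in siGPR64 and 62.7 CPM in control_GPR64. It was 1.81-fold higher (1.50 to 2.19), and its log2 ratio against control_SMPD1 was 0.16. CD97, a leukocyte receptor that binds CD55 and THY1, had 72.1 CPM in siGPR64 and 57.9 CPM in control_GPR64 (log2 ratio 0.32, 1.24-fold higher).

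The phagocytosis receptor gene BAI1 had 44.3 CPM in siGPR64 and 36.3 CPM in control_GPR64, and BAI3, a receptor for C1q-like proteins, 24.3 CPM in siGPR64 and 30.1 CPM in control_GPR64. Their log2 ratios of 0.28 and -0.31 had intervals that include 0. CELSR3, GPR126, which is needed for myelination by Schwann cells, and EMR2, a myeloid receptor, had ratios of 2-fold or more whose intervals include equality. CELSR3 had 5 reads in siGPR64 and 13 in control_GPR64, GPR126 had 4 in siGPR64 and 2 in control_GPR64, and EMR2 had 9 in siGPR64 and 3 in control_GPR64. GPR123, little studied and expressed in brain, had 17 reads in siGPR64 and 11 in control_GPR64. For these 4 genes the ratio over control_GPR64 could not be told from equality at this depth. Against control_SMPD1, EMR2 and GPR123 were higher in siGPR64 by the rule, with log2 ratios of 3.32 and 2.77, and CELSR3 was lower, at -1.33. These ratios also rest on few reads, since control_SMPD1 had 6 for EMR2 (0.312 CPM) and 18 for GPR123 (0.937 CPM). For CELSR3 the few reads were the 5 in siGPR64, against 96 in control_SMPD1 (5.00 CPM).

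The second comparison asked how the family stands when SMPD1 is silenced. No member passed the rule in siSMPD1, with 16 measured, where it calls 3.6% of 12749 measured genes (2.49% higher and 1.11% lower). Ratios were nevertheless mostly above 1: 12 of the 16 members were higher and 4 lower in value. The counting interval excluded equality for 10 of them, of which 9 were above and BAI1 below. Over all measured genes the interval excluded equality for 57%, 28.1% above and 28.8% below, so the members' total is near the background share. The median log2 ratio was 0.35, against 0.00 over all measured genes, and 0.29 without GPR64.

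CELSR2 had 3602 reads in siSMPD1 and 1960 in control_SMPD1, or 191 CPM in siSMPD1 and 102 CPM in control_SMPD1. This 1.87-fold ratio (1.77 to 1.98) was the largest among measured members, and siSMPD1 was the highest of the 4 libraries for this gene. BAI2 was 1.70-fold higher (1.39 to 2.09). CELSR3 had 8.37 CPM in siSMPD1 and 5.00 CPM in control_SMPD1, 1.67-fold higher (1.29 to 2.18). All 3 members of subfamily C thus had ratios above 1 in siSMPD1, with CELSR1 at 1.15-fold (1.02 to 1.30).

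CD97 had 64.3 CPM in siSMPD1 and 44.5 CPM in control_SMPD1, 1.44-fold higher (1.32 to 1.58). GPR64 was 1.39-fold higher (1.35 to 1.43) and GPR124, with 291 CPM in siSMPD1 and 219 CPM in control_SMPD1, 1.33-fold higher (1.27 to 1.38). GPR125 and LPHN1 were at 1.19-fold (1.12 to 1.27) and 1.14-fold (1.06 to 1.22). The largest ratio below 1 was that of BAI1, 1.16-fold lower (1.02 to 1.33), with 21.5 CPM in siSMPD1 and 24.9 CPM in control_SMPD1. GPR98 and GPR128 lay at 1.04-fold and 1.01-fold lower, and their intervals include equality.

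Against control_GPR64 the siSMPD1 library gave another picture, with 6 members higher and 3 lower of 17 measured, where the rule calls 18.5% of 12887 genes (10.5% higher and 8.02% lower). GPR64 was 4.96-fold higher there (4.44 to 5.57), GPR98 13.3-fold (7.31 to 28.3) and CELSR2 3.04-fold (2.62 to 3.55). LPHN2, GPR123 and GPR128 were lower, by 4.79-fold (2.68 to 8.84), 4.27-fold (1.86 to 10.2) and 2.65-fold (1.37 to 5.04). Of the 6 that were higher there, CELSR2, BAI2, CELSR1, GPR64 and GPR126 also had ratios above 1 against control_SMPD1, and GPR98 had one below 1.

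**Figure D4:**
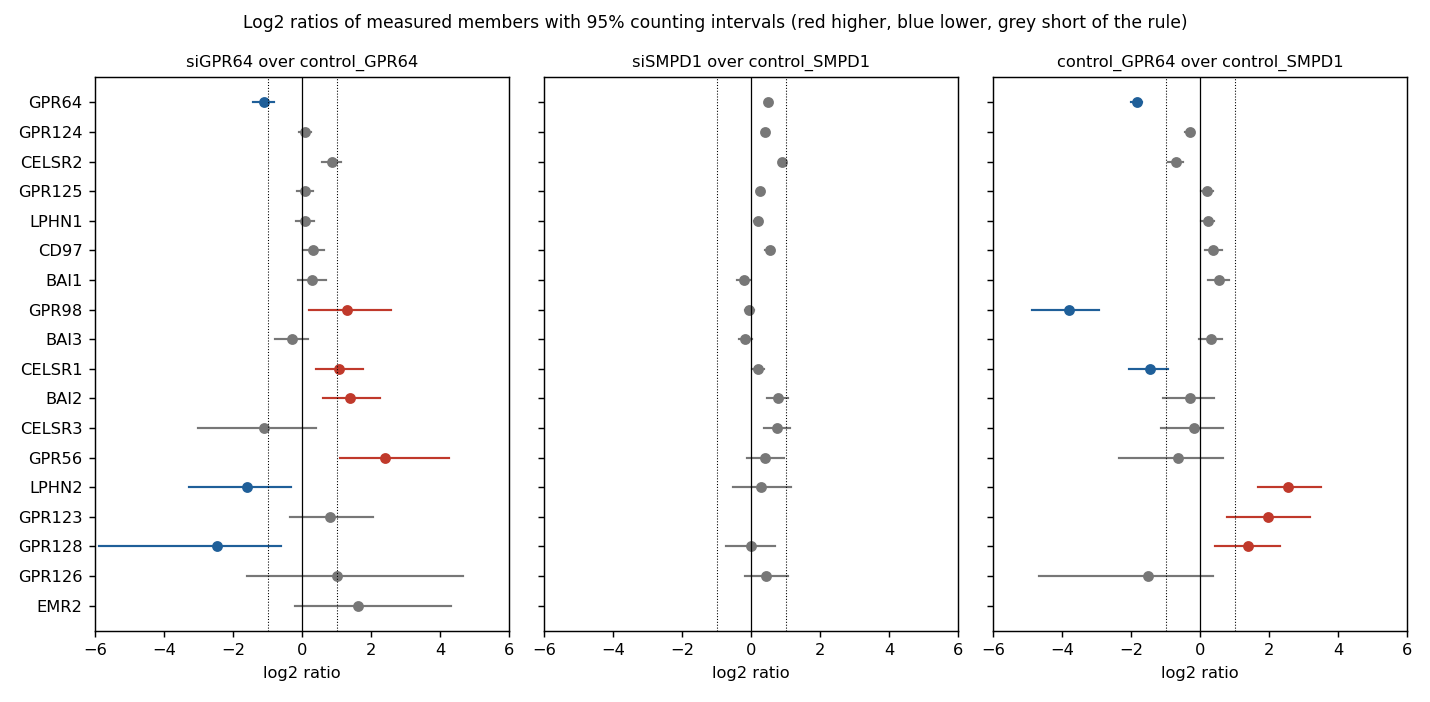
Log2 ratios (horizontal axis) of the 18 measured members for siGPR64 over control_GPR64, siSMPD1 over control_SMPD1 and control_GPR64 over control_SMPD1, with 95% counting intervals and dotted lines at 2-fold. Red points are higher and blue points lower by the rule: 7 in the first panel, 0 in the second and 6 in the third; a member with a mean under 1 CPM in a pair has no point.

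The third comparison set the scrambled siRNA libraries against each other. GPR64, CELSR1 and GPR98 were lower and LPHN2, GPR123 and GPR128 higher in control_GPR64 than in control_SMPD1. These are 6 of 17 measured members, where the rule calls 15.4% of 12798 measured genes (7.02% higher and 8.33% lower). GPR98 had the widest gap, with 10 reads in control_GPR64 and 926 in control_SMPD1, 13.9-fold lower (7.62 to 29.4). CELSR1 was 2.74-fold lower (1.89 to 4.15), LPHN2 5.86-fold higher (3.23 to 11.2), GPR123 3.88-fold higher (1.72 to 8.99) and GPR128 2.63-fold higher (1.36 to 4.98). GPR64, CELSR1, GPR98, LPHN2 and GPR128 are also past the rule between siGPR64 and control_GPR64, and those comparisons share the control_GPR64 library. BAI2 and GPR56 are not past the rule between the controls, at 1.23-fold (0.76 to 2.10) and 1.57-fold lower (0.64 to 5.07).

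The gap between the controls varied with transcript length. Over all measured genes the median log2 ratio of control_GPR64 over control_SMPD1 was 0.17 for 1990 genes with a longest transcript under 2 kb and -0.33 for 269 genes of 12 kb or more. Between siSMPD1 and control_SMPD1 the same medians were 0.01 and -0.05. GPR98 has a longest transcript of 19.6 kb and a log2 ratio of -3.80, and 1 of the 269 long genes had a ratio that low, which is GPR98 itself. CELSR1 and CELSR2, at 11.4 and 10.5 kb, had ratios of -1.46 and -0.70, where 870 genes of 8 to 12 kb had a median of -0.21. CELSR3, the longest CELSR gene at 11.96 kb, had -0.16, on 13 reads in control_GPR64 and 96 in control_SMPD1. GPR64, at 5.79 kb, had -1.84, where the median for 4 to 8 kb was -0.09. The part of transcript length in the values of GPR98 and the CELSR genes was not tested.

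**Figure D5:**
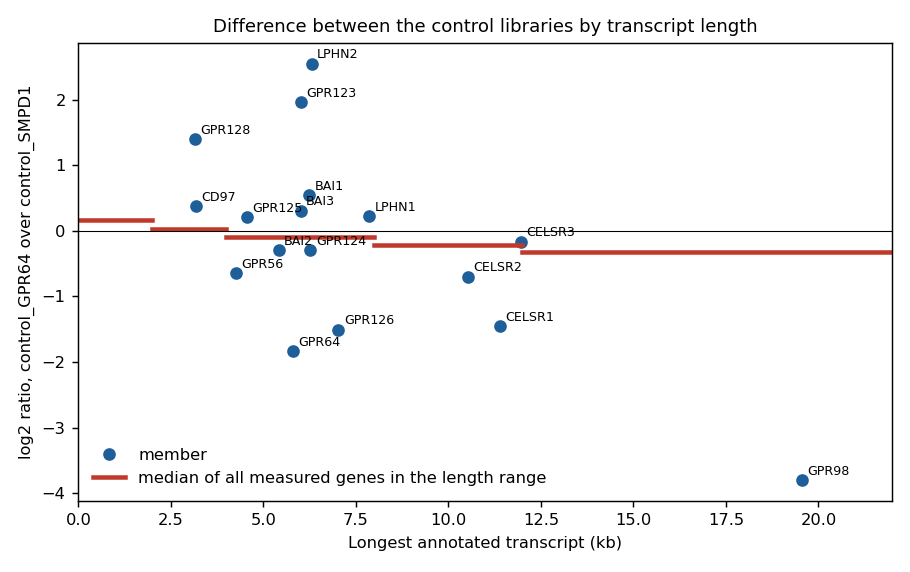
Log2 ratio of control_GPR64 over control_SMPD1 (vertical axis) against the longest annotated transcript in kb (horizontal axis) for the 17 members measured in that comparison (points); red lines are medians of all measured genes in each length range, the last ending at the edge of the plot. The medians fall to -0.33 at 12 kb or more, and GPR98 lies at -3.80.

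Partners of the receptors were counted as a list of 58 genes: ligands and surface partners, planar polarity partners of the CELSR genes, G alpha subunits, other intracellular partners, and Usher partners of GPR98. In siGPR64, 3 of 44 measured partners were higher and 3 lower than in control_GPR64, or 13.6%, near the 11.7% of all measured genes, and the median log2 ratio was 0.18. GNA13, a G alpha subunit, had 51.3 CPM in siGPR64 and 121 CPM in control_GPR64, and 119 CPM in siSMPD1 and 126 CPM in control_SMPD1. The siGPR64 library alone stood low, 2.34-fold below its control (1.92 to 2.89) and 2.46-fold below control_SMPD1 (2.07 to 2.96). GNAQ, the subunit that activates phospholipase C, had 30.9 CPM in siGPR64 and 66.5 CPM in control_GPR64, and 40.9 CPM in siSMPD1 and 59.7 CPM in control_SMPD1. It was 2.14-fold lower in siGPR64 (1.64 to 2.83) and 1.93-fold lower against control_SMPD1 (1.54 to 2.45). GNAS, the stimulatory subunit, had 1029 CPM in siGPR64 and 991 CPM in control_GPR64, and 5 further G alpha genes were also short of the rule.

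RTN4R and RTN4RL2, Nogo receptor genes whose products bind BAI1, were higher in siGPR64, with log2 ratios of 1.01 (0.47 to 1.59) and 1.18 (0.49 to 1.93). Both were also past the rule against control_SMPD1, at 2.63-fold (2.01 to 3.42) and 6.90-fold (4.70 to 10.4). For RTN4RL2 the controls differ, with 8.91 CPM in control_GPR64 and 2.91 CPM in control_SMPD1, so the larger ratio includes that gap. THY1, a CD97 ligand, had 324 CPM in siGPR64 and 159 CPM in control_GPR64, but 358 CPM in siSMPD1 and 347 CPM in control_SMPD1, so control_GPR64 was the one that stood apart. FLRT1, of the latrophilin ligands, was 2.28-fold lower in siGPR64 (1.17 to 4.97), with a log2 ratio of -0.81 against control_SMPD1.

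In siSMPD1, 2 of 41 measured partners were higher and 1 lower, or 7.32%, against 3.6% of all measured genes, with a median log2 ratio of 0.04. C1QL1 and C1QL4, ligands of BAI3, were 2.25-fold (1.83 to 2.79) and 4.29-fold (2.28 to 9.49) higher than in control_SMPD1. C1QL1 had 15.5 CPM in siSMPD1 and 6.87 CPM in control_SMPD1, but 17.8 CPM in control_GPR64, so its direction depends on the control. PRNP, the prion protein gene, whose product is a ligand of GPR126, was 2.02-fold lower (1.94 to 2.11) and had a log2 ratio of -0.40 against control_GPR64. No planar polarity, other intracellular or Usher partner passed the rule in either siRNA pair. The most abundant of each in mean CPM were FZD3, ARHGEF12 and DFNB31. FZD3 had 71.7 CPM in siGPR64 and 56.5 CPM in control_GPR64, and 66.8 CPM in siSMPD1 and 72.7 CPM in control_SMPD1. ARHGEF12 had 439 CPM in siGPR64 and 319 CPM in control_GPR64, and 370 CPM in siSMPD1 and 693 CPM in control_SMPD1. DFNB31 had 19.2 CPM in siGPR64 and 13.4 CPM in control_GPR64, and 9.49 CPM in siSMPD1 and 10.9 CPM in control_SMPD1. All 3 had a ratio above 1 in siGPR64 and below 1 in siSMPD1 over the paired control.

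Some known partners had few or no reads. WNT7A and WNT7B, the ligands sensed by GPR124 together with RECK, and ELMO1, the BAI1 adaptor, had 0 counts in all 4 libraries. CD55, a ligand of CD97, had 0 in siGPR64 and control_GPR64, 3 in siSMPD1 and 10 in control_SMPD1.

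When the scrambled libraries were taken as replicates of 1 group, edgeR's quasi-likelihood test with Benjamini-Hochberg adjustment over 13664 genes called no member and no gene in either contrast. At an unadjusted p under 0.05 edgeR had 313 genes for siGPR64, 2 of them members, and 179 for siSMPD1, 1 of them a member. DESeq2 called no member either, with 0% of genes for siGPR64 and 0.00732% for siSMPD1 past an adjusted p of 0.05. For GPR64 in siGPR64 the adjusted p was 0.9999 in edgeR and 0.780 in DESeq2. This fit estimates the spread from 2 libraries that differ by 3.57-fold in GPR64.

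Reads of GPR124 and EMR2 may include or lack those of BRF2 and ZNF333, which share 1629 and 1354 exon bases with them on the opposite strand in GENCODE, since the sources used here do not give the strand setting. CD97 and EMR2 have near-identical stretches, and reads that align equally well to both may be absent from the counts.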

How the data were processed

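Per the labels' protocols, total RNA from A673 cells was taken 48 h after siRNA transfection, and libraries depleted of ribosomal RNA were read from both ends. Per the submitters' processing notes, bcl2fastq, TopHat2, SAMtools, HTSeq and build hg19 were used, with no versions. Annotation and strand setting: not given in the sources used here. Each file deposited by the authors lists unnormalized read counts by gene symbol for 1 library, and each group has 1 library. HTSeq's summary lines, 36.5% to 44.8% of entries, were left out of library sizes.

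Counts were scaled with TMM factors (edgeR 4.0.16, R 4.3.3). Log2 ratios used a prior of 0.5 count, and intervals are Clopper-Pearson intervals of the share of reads. Fold values are ratios without sign. The rule of size was a mean of at least 1 CPM, 2-fold, and an interval that excludes equality. On simulated counts with known changes it recovered 47.8% of 2-fold changes in the siGPR64 pair and 56.7% in the siSMPD1 pair. Between the controls it recovered 44.8% of them. The rule itself asks for 2-fold, so a change near 2-fold can be missed at any depth. Of 4-fold changes it recovered 98.5% in the siGPR64 pair and 100% in the siSMPD1 pair and between the controls. edgeR and DESeq2 1.42.0, with both controls as replicates, were alternatives. Gene lengths and overlaps came from GENCODE release 29 and promoters from RefSeq GRCh38.p14, a build other than hg19, so no gene coordinates of hg19 are given.

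Of the members, 29 matched a current RefSeq symbol through its synonyms. All members are accounted for, those at 1 CPM or more with values. Partners named are those past the rule in a siRNA pair and the most abundant of each role with none; partners named for few reads were chosen after their values were seen. A few family genes and listed partners are not reported here. Members, lists and rule were chosen with earlier results of these data known.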

Additional observations from a re-analysis of the deposited data

How the results depend on the processing

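Scaling by library gene count totals or DESeq2 size factors, and a prior of 2 counts, kept the same members past the rule in siGPR64 and siSMPD1 over their own controls and between the controls, and under each setting 49 member ratios, and those of GPR64 in both siRNA pairs, stayed within their counting intervals. With the control of the other pair, GPR64 stood at a log2 ratio of -2.95 in siGPR64 and 2.31 in siSMPD1, and in siGPR64 CELSR1 (-0.40), GPR98 (-2.48) and LPHN2 (0.89) took the opposite sign. In siSMPD1 the members past the rule then numbered 9 in place of 0, and the median log2 ratio of all measured members was 0.71. The cause was not tested. Without a filter on mean CPM, 1 member passed in siSMPD1, GPR116, on 8 reads in siSMPD1 and 1 in control_SMPD1. With a mean of at least 5 CPM fewer genes were tested, and 3 members passed between the controls in place of 6. CELSR1, GPR64 and GPR98 stayed lower, while all 3 higher ones, GPR123, GPR128 and LPHN2, dropped out. The median of all measured members between the controls was then -0.30. In siGPR64, GPR128 and LPHN2 were no longer measured at that setting. With both controls as 1 group, edgeR and DESeq2 called 0 members in siGPR64, in place of 7, and 0 in siSMPD1. No paired analysis was possible because each group has 1 library and no replicate numbers are given. Depth limits the members with few reads in the siGPR64 and control_GPR64 libraries, where a count of 0 allows more than 1 CPM.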
